A study of Mus musculus with 6 samples.

Results

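The 10 genes described here are Kruppel-like factors: Klf15, the gene deleted in these mice, and Klf2, Klf3, Klf6, Klf7, Klf9, Klf10, Klf11, Klf12 and Klf13. They were taken by name from the 48432 genes of the deposited table, and all 10 passed the filter on low counts that left 16533 genes to test. The samples were livers of 10-week-old mice in 2 groups with 3 sequencing libraries each. The control group, Ctl, carried Albumin-Cre, a transgene that expresses Cre recombinase from the albumin promoter and so in hepatocytes. The other group, Li-KO, was a liver-specific Klf15 knockout. The labels name neither the deleted exon nor the sex, feeding state or time of day, and they do not say that the libraries came from separate mice, so spread between libraries, which may be technical, is what the p-values rest on. Kupffer, endothelial and stellate cells of the organ are in the same RNA, and in such bulk samples fewer cells of a type and less RNA per cell cannot be told apart.

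Kruppel-like factors bind GC-rich and CACCC sequences through zinc fingers at their carboxyl end, which resemble each other closely across the family and those of the related Sp factors. Their amino ends differ and recruit different partners: Klf9, Klf10, Klf11 and Klf13 bind the Sin3a corepressor, Klf3 and Klf12 bind the corepressor Ctbp, and Klf2, Klf6 and Klf7 act mainly as activators. In liver, Klf15 is known as a factor induced by fasting and glucocorticoids that drives amino acid breakdown and gluconeogenesis. Several relatives are known to regulate one another's genes, so the levels of the other members in livers without Klf15 bear on whether a relative takes its place.

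No member rose in Li-KO liver by edgeR, DESeq2 or limma-voom, nor at an unadjusted p under 0.05. All 10 log2 fold changes (Li-KO minus Ctl) were below 0, and 5 members fell at an adjusted p under 0.05: Klf10, Klf15, Klf12, Klf11 and Klf7. Across all genes tested, 5.90% fell and 6.11% rose at that threshold, 12.0% in all. The Ctl and Li-KO libraries did not overlap, with Li-KO lower, for 8 of the 10 members, against 17.8% of all genes tested. The median log2 fold change was -0.74 over the members and -0.01 over all genes. The members were chosen with earlier results of these data known, so these comparisons with all genes are not independent evidence. Changes are given on the scale of CPM, the count of a gene relative to the scaled total of its library, and levels of different genes are compared as FPKM, which also accounts for transcript length. Adjusted p-values are from the quasi-likelihood test of edgeR over all genes.

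Promoters are shown for 3 members that fell, Klf15, Klf11 and Klf7, because they let the family's own binding letters be looked for in genes that fell. The promoter of Klf12, which also fell, was listed but is not printed. Each is the window from 250 bases before to 50 bases after the RefSeq start site on GRCm38.p6, written 5′ to 3′ on the strand of the gene. Capitals mark 2 motifs: the CACCC box bound by Kruppel-like factors (CACCC, or GGGTG on the other strand) and the E-box bound by clock factors (CACGTG, the same on both strands).
Klf15, chr6:90462326-90462625, plus strand: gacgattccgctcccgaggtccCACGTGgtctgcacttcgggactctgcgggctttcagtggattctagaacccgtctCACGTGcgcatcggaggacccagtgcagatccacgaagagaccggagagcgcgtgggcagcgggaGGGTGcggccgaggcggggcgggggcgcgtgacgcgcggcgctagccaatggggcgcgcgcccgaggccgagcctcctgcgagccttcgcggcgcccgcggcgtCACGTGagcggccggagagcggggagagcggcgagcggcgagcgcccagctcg
Klf11, chr12:24651121-24651420, plus strand: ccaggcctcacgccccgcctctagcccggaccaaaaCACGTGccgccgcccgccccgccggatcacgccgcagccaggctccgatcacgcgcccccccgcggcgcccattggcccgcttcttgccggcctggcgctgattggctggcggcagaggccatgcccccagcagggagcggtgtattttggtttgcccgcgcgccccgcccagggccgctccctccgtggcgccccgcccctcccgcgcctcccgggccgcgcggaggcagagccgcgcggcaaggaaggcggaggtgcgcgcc
Klf7, chr1:64121340-64121639, minus strand: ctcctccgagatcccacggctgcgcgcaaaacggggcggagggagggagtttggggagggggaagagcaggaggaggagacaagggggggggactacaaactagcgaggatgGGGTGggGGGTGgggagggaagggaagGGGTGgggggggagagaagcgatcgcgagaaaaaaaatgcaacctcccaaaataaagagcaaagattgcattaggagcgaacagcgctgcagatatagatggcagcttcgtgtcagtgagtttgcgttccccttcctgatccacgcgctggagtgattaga

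The Klf15 promoter held 3 E-boxes, at positions -228, -172 and -3 from the start site. At least 1 E-box was found in 7.15% of the 32851 promoters listed, and 3 or more in 29 of them, 0.0883%. The Klf15 window had 1 CACCC box at -107, a motif present in 57.5% of promoters. The Klf11 window had 1 E-box at -214 and no CACCC box, and Klf7 had 3 CACCC boxes inside a run rich in G. Of the promoters listed, 9.35% held 3 or more CACCC boxes. Promoters were listed for 9 of the 10 members, Klf10 being the exception. Of these 9, 7 held a CACCC box, 3 an E-box (Klf15, Klf11 and Klf6) and 5 a GC box, which 25.6% of promoters held. The GC box is the GC-rich Sp factor motif, searched as CCCGCCC on both strands and not marked by capitals. The Klf11 window held 3 GC boxes, at -202, -50 and -21, and 4.41% of promoters held 3 or more. The Klf15 window held 1, at -91, and the Klf7 window 0. The listed windows of Klf7 and Klf12 lie inside their gene models and not at the outer end. CACCC and GC box matches shared bases in the Klf3 and Klf13 windows. A match is only a match of letters, and binding was not measured.

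**Figure D1:**
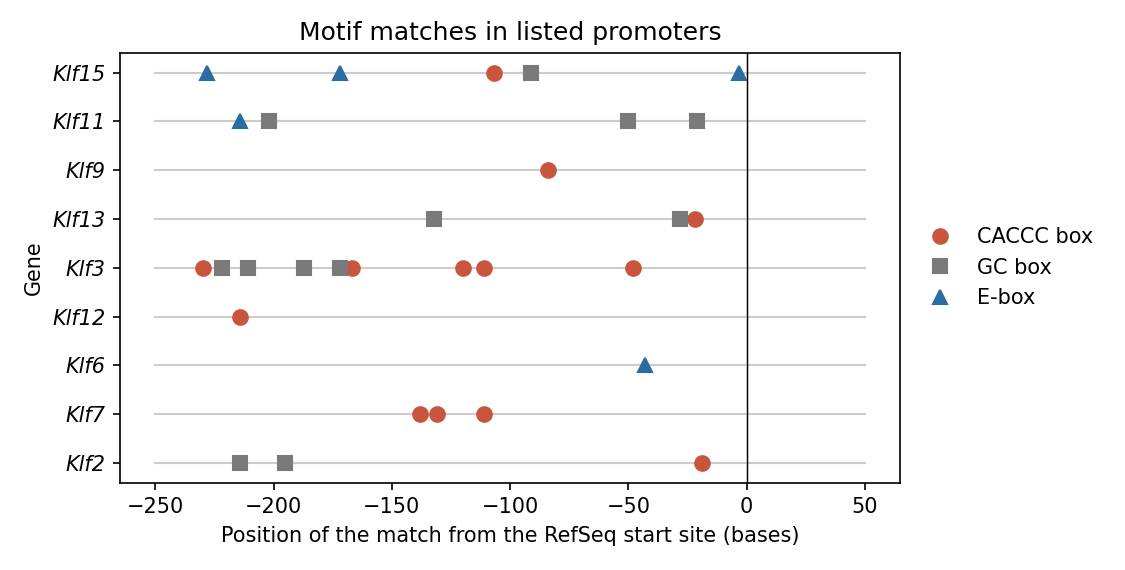
Motif matches in the promoters of 9 members, plotted by distance in bases from the RefSeq start site (vertical line). Each row is a gene and each symbol the first base of a match on either strand. Klf15 has 3 E-boxes and Klf3 the most CACCC boxes, 5.

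Klf15 (ENSMUSG00000030087.11), which lies on the plus strand of chromosome 6 from 90462576 to 90475238 (mm10), was the most abundant member in Ctl liver. Its level was 123, 60.0 and 68.3 FPKM in Ctl replicates 0, 1 and 2, and 17.1, 13.4 and 17.8 FPKM in Li-KO replicates 0, 1 and 2. Each Li-KO library was below each Ctl library, and Ctl replicate 0 was well above the other Ctl libraries. This was a 4.84-fold decrease (log2 fold change -2.28 ± 0.26 SE, edgeR adjusted p = 0.00275). Klf15 transcripts were not absent: the Li-KO libraries held 1686, 1295 and 2131 Klf15 fragments. These counts cover all exons and the labels do not name the deleted one, so they do not measure the deletion itself.

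Klf10 fell furthest of the 10. Klf10 (ENSMUSG00000037465.9, chromosome 15, 38291463 to 38300706, minus strand), first known as a TGF-beta-inducible gene, is a repressor under circadian and glucose control in liver. It had 1897, 1958 and 2334 fragments in Ctl replicates 0, 1 and 2 against 160, 201 and 345 in Li-KO, or 45.5, 52.7 and 61.9 CPM against 5.16, 6.45 and 8.39 CPM. The groups lay far apart, with a spread within each that was small beside the gap. Klf10 fell 7.98-fold, with a log2 fold change of -3.00 ± 0.21 (edgeR adjusted p = 0.000495). With each library left out in turn, that change stayed between -3.20 and -2.82.

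Klf11 (ENSMUSG00000020653.11, chromosome 12, 24651274 to 24662789, plus strand), the closest relative of Klf10 and a repressor that recruits Sin3a, also fell. It was at 25.6, 10.9 and 13.7 CPM in Ctl liver against 5.67, 6.26 and 7.58 CPM in Li-KO liver. The groups did not overlap, and Ctl replicate 0 stood well above the other Ctl libraries, as it did for Klf15. Klf11 passed with a log2 fold change of -1.36 ± 0.31 (edgeR adjusted p = 0.0298). Without Ctl replicate 0 the log2 fold change was -0.92 and the gene still passed (adjusted p = 0.0442), while it did not pass without Ctl replicate 2 (0.0618), Li-KO replicate 0 (0.0709) or Li-KO replicate 1 (0.102).

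The other 2 members of the Sin3a-binding group did not pass the test. Klf9 (chromosome 19, 23141226 to 23168134, plus strand), which glucocorticoid and thyroid hormones induce, was at 157, 122 and 96.7 CPM in Ctl liver and 59.3, 80.6 and 85.8 CPM in Li-KO liver. The groups did not overlap, and the log2 fold change of -0.74 ± 0.20 had an adjusted p of 0.0503, just outside the threshold. Klf13 (chromosome 7, 63886351 to 63938915, minus strand), best known from lymphocytes and heart, was at 125, 118 and 91.0 CPM in Ctl liver and 72.9, 79.6 and 127 CPM in Li-KO liver. Li-KO replicate 2 was above all Ctl libraries and the others below them, so the groups overlapped, and the log2 fold change was -0.26 ± 0.22 (adjusted p = 0.477).

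**Figure D2:**
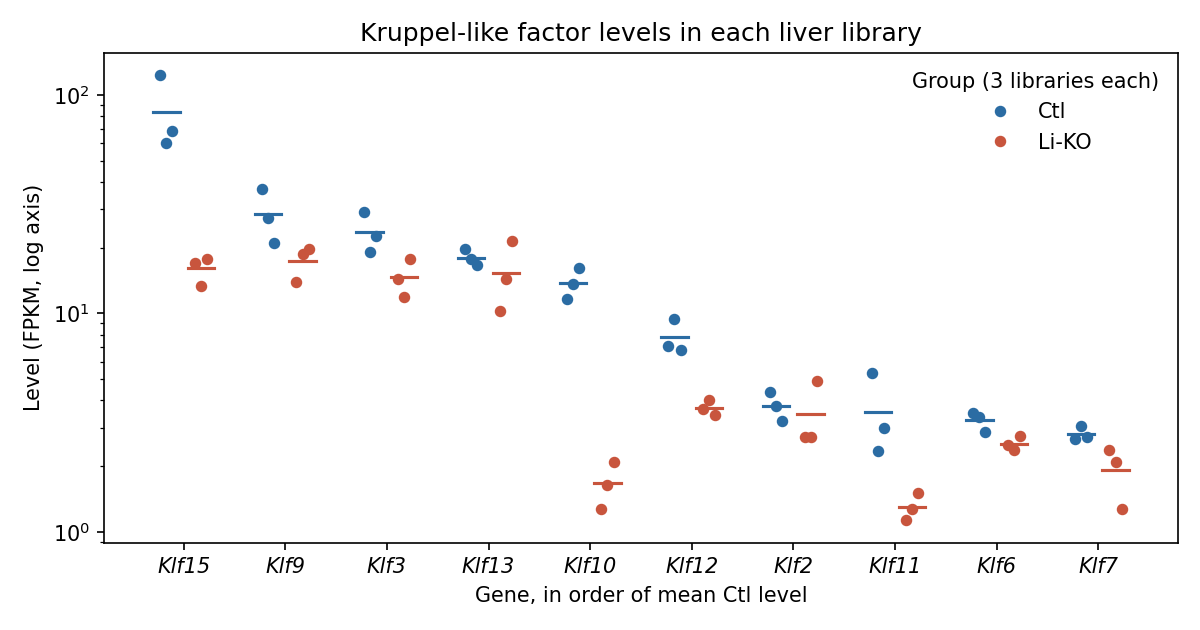
FPKM on a log axis for the 10 members, in order of their mean Ctl level. Points are libraries (3 Ctl and 3 Li-KO) and short lines are group means. By FPKM, Klf15 falls from 83.8 to 16.1, near Klf9, Klf13 and Klf3 in Li-KO (per kilobase of annotated exon it stays first there, at 17.6 CPM), and Klf10 drops from 13.8 to 1.67 FPKM.

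Of the Ctbp-binding repressors, Klf12 fell. Klf12 (ENSMUSG00000072294.4, chromosome 14, 99870632 to 100284679, minus strand), named for repressing the gene of the transcription factor AP-2 alpha, was at 17.3, 24.1 and 17.4 CPM in Ctl liver and 9.31, 10.1 and 8.31 CPM in Li-KO liver. The 3 Li-KO values lay close together and all below the Ctl values (log2 fold change -1.09 ± 0.18, edgeR adjusted p = 0.0104). Klf12, Klf15 and Klf10 were the 3 members that passed with each library left out in turn.

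Klf3 (chromosome 5, 64803388 to 64832901, plus strand), a repressor known from blood and fat cells, was at 192, 130 and 149 CPM in Ctl liver and 94.3, 67.1 and 118 CPM in Li-KO liver. The groups did not overlap, though Li-KO replicate 2 came close to Ctl replicate 1. Klf3 did not pass (log2 fold change -0.75 ± 0.22, edgeR adjusted p = 0.0601), and without Li-KO replicate 2 it was -0.96 with an adjusted p of 0.0265.

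Of the activators, Klf7 fell and Klf6 and Klf2 did not pass. Klf7 (ENSMUSG00000025959.13, chromosome 1, 64029447 to 64122282, minus strand), expressed in many tissues, was at 19.6, 24.0 and 22.5 CPM in Ctl liver and 14.0, 12.2 and 14.0 CPM in Li-KO liver. The groups did not overlap and each was narrow (log2 fold change -0.72 ± 0.14, edgeR adjusted p = 0.0181). On the deposited FPKM the value was -0.57 with an adjusted p of 0.171 (limma, pseudocount 0.1), where Li-KO replicate 2 was listed at 1.28 FPKM against 2.38 and 2.09 in the other Li-KO libraries. The call also ended without Ctl replicate 1 or 2 or Li-KO replicate 1, the highest adjusted p being 0.0917.

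Klf6 (chromosome 13, 5861482 to 5870394, plus strand), an early gene of liver injury, was at 20.8, 20.0 and 17.3 CPM in Ctl liver and 14.5, 13.6 and 17.2 CPM in Li-KO liver. The lowest Ctl and the highest Li-KO library differed by little, and the log2 fold change was -0.36 ± 0.15 (adjusted p = 0.151). Klf2 (chromosome 8, 72319033 to 72321656, plus strand), the endothelial factor induced by blood flow, was at 7.93, 7.13 and 6.13 CPM in Ctl liver and 5.45, 5.30 and 8.70 CPM in Li-KO liver. Its highest value was in Li-KO replicate 2 and its groups overlapped, with a log2 fold change of -0.12 ± 0.24 (adjusted p = 0.782). That change was 0.01 without Li-KO replicate 0 and -0.40 without Li-KO replicate 2. Of 10 markers of sinusoidal endothelium, the cells in which Klf2 is best known, 0 passed in either direction by edgeR, 1 was lower at an unadjusted p under 0.05 and by DESeq2, and none was at 0 counts. Their summed level was 737 to 808 CPM in Ctl liver and 570 to 896 CPM in Li-KO liver.

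For some members, rises too small to pass cannot be dismissed. The 95% interval of the log2 fold change, not adjusted for the number of genes, lay below 0 for 8 members, Klf6 with an upper end of -0.02 among them. It held 0 for Klf13 and Klf2. Its upper end was 0.24 for Klf13, a 1.18-fold rise, and 0.43 for Klf2, a 1.35-fold rise.

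**Figure D3:**
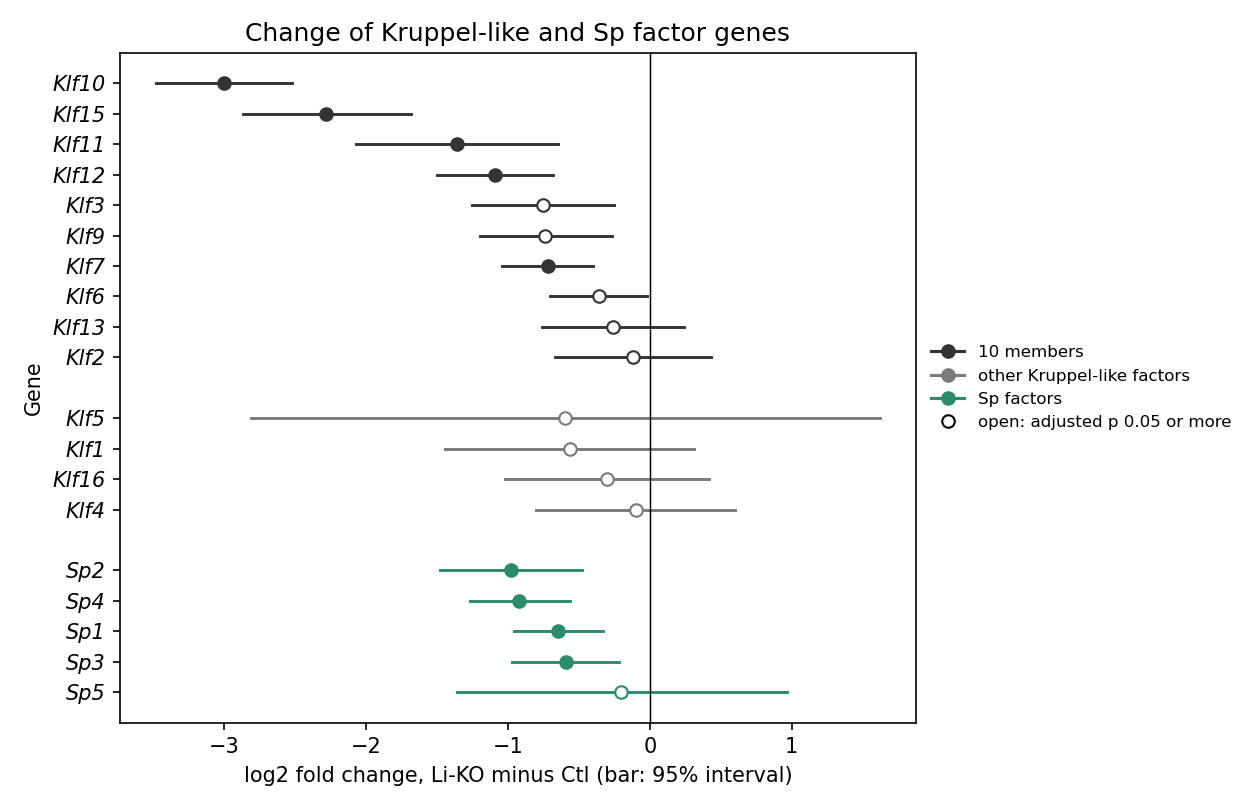
log2 fold change (Li-KO minus Ctl) with its 95% interval for the 10 members, the 4 other Kruppel-like factors tested and the 5 Sp factors tested. Filled points passed at an adjusted p under 0.05. All points lie below 0, and the members range from -3.00 (Klf10) to -0.12 (Klf2).

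The summed level of the 10 members was 244, 160 and 163 FPKM in Ctl replicates 0, 1 and 2 and 69.2, 72.3 and 92.8 FPKM in Li-KO replicates 0, 1 and 2. The groups did not overlap, with means of 189 ± 47.4 and 78.1 ± 12.8 FPKM (SD, n = 3 libraries each), 2.42-fold lower in Li-KO. Without Klf15, the other 9 members summed to 120, 99.7 and 95.1 FPKM in Ctl and 52.2, 59.0 and 75.0 FPKM in Li-KO, 1.69-fold lower. No test was made of these sums, whose members were chosen with their values known. Klf15 made up 43.3% ± 6.61 of the sum in Ctl and 20.8% ± 3.38 in Li-KO.

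**Figure D4:**
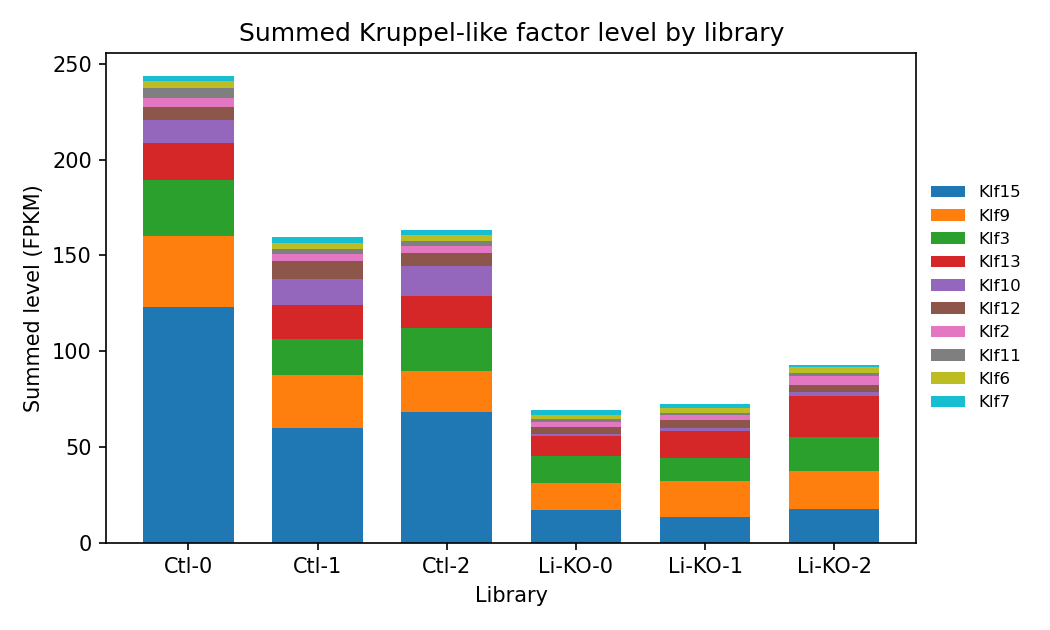
Stacked bars of the FPKM of the 10 members in each of the 6 libraries. Bar height is the summed level, between 160 and 244 FPKM in Ctl and between 69.2 and 92.8 FPKM in Li-KO, and the bottom segment is Klf15.

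The order of the members differed between the groups. In Ctl liver Klf15 came first at 83.8 FPKM, above the range of all others, followed by Klf9 (28.5), Klf3 (23.6), Klf13 (18.0), Klf10 (13.8) and Klf12 (7.79 FPKM). Klf2, Klf11, Klf6 and Klf7 came last, at 2.81 to 3.77 FPKM. The ranges of Klf9 and Klf3 overlapped, as did those of Klf3 and Klf13, and the last 4 each overlapped the next. In Li-KO liver Klf9 (17.5), Klf15 (16.1), Klf13 (15.4) and Klf3 (14.7 FPKM) had the highest FPKM, and the ranges of neighbours overlapped. Below them lay Klf12 (3.70), Klf2 (3.45), Klf6 (2.53), Klf7 (1.91), Klf10 (1.67) and Klf11 (1.30 FPKM), again with overlapping neighbours. This order depends on the length used. As CPM per kilobase of all annotated exons, Klf15 also came first in Li-KO liver, at 17.6, followed by Klf9 (15.6), Klf13 (12.4) and Klf3 (8.29). On that scale Klf12 ranked 9 in Ctl and 10 in Li-KO, Klf13 came before Klf3 in Ctl, and the order among the scarcer members also differed.

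Libraries of a group differed in a way that many members shared. Ctl replicate 0 had the highest CPM of its group for 7 of the 10 members, the exceptions being Klf10, Klf12 and Klf7. In Li-KO, replicate 2 was highest for 7 members, the exceptions being Klf15, Klf12 and Klf7. The median deviation of the members from their group mean was 0.18 log2 units in Ctl replicate 0 and 0.22 in Li-KO replicate 2, against 0.01 in both for all genes. Deviations in Ctl replicate 0 were 0.71 for Klf11, 0.60 for Klf15 and 0.35 for Klf9, and in Li-KO replicate 2 they were 0.49 for Klf13 and 0.46 for Klf2. Per1, a clock gene that glucocorticoids induce, chosen after its values were seen, was also highest in Ctl replicate 0, at 87.5 CPM against 43.1 and 52.0. Its highest Li-KO value was that of replicate 2, 49.3 CPM (others 23.1 and 27.4). Of the other clock genes tested, Arntl, Nr1d2, Cry1, Cry2, Tef, Nfil3, Rora and Ciart were highest of the group in Ctl replicate 0. Dbp, Per2 and Bhlhe41 were lowest there, and the rest were neither. Pck1, a gluconeogenic gene induced by fasting, also chosen after its values were seen, was at 6436 CPM there against 1840 and 2963. Among Li-KO libraries, Pck1 was at 5582, 3572 and 5343 CPM in replicates 0, 1 and 2. The part of such differences between libraries in the member values was not tested.

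**Figure D5:**
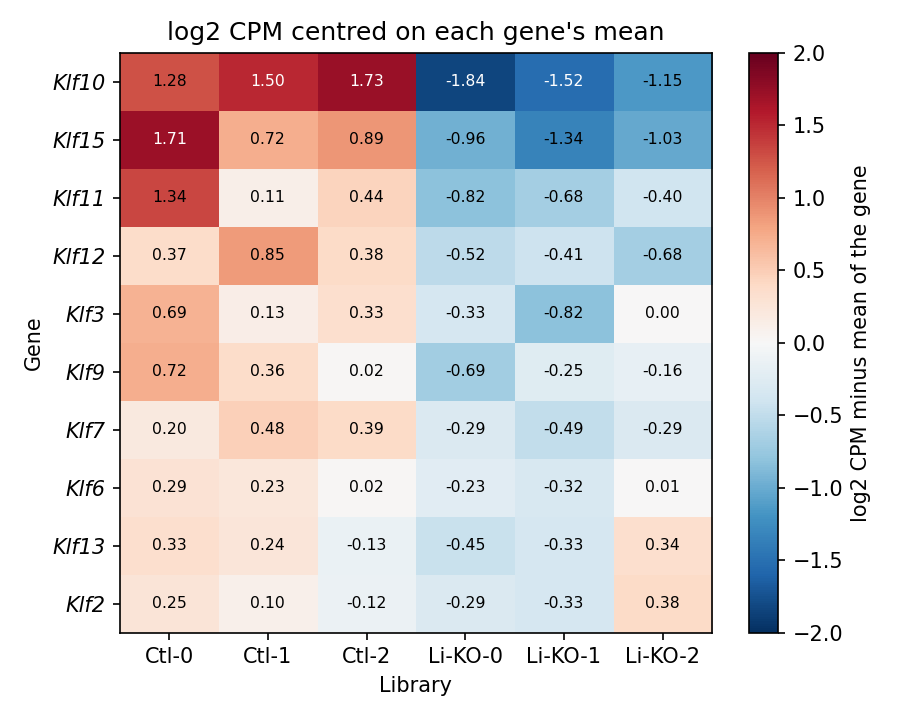
log2 CPM of each member in each library, centred on the mean of that gene over the 6 libraries (colour and printed value). The Ctl columns are above 0 except for Klf13 and Klf2 in replicate 2, and the Li-KO columns reach -1.84 for Klf10, with Klf13 (0.34), Klf2 (0.38) and Klf6 (0.01) above 0 in replicate 2.

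The 7 other Kruppel-like factors were scarce. Klf1, Klf4, Klf5 and Klf16 passed the filter on low counts, Klf8 did not, and Klf14 and Klf17 had 0 counts in all libraries. Of the 4 tested, 0 passed in either direction by edgeR, DESeq2 or limma-voom, or at an unadjusted p under 0.05, and their median log2 fold change was -0.43. Klf16 had the highest mean FPKM of the 7, at 1.82 ± 0.835 in Ctl and 1.45 ± 0.0101 in Li-KO. Klf1, the erythroid factor, was at 3.83, 1.70 and 3.18 CPM in Ctl liver and 1.58, 2.70 and 1.63 CPM in Li-KO liver, with an adjusted p of 0.366. The 6 erythroid markers summed to 611 to 678 CPM in Ctl liver and 247 to 484 CPM in Li-KO liver, with 0 passing by edgeR, 3 lower at an unadjusted p under 0.05, 2 by DESeq2 and 1 by limma-voom. Their part in the Klf1 values was not tested.

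Sp factors, which share the zinc finger type, were lower too. Of the 9, 5 passed the filter, and 4 of these fell and 0 rose, against 5.90% lower among all genes. The median log2 fold change of the 5 was -0.65. Sp4 was at 16.2, 17.4 and 16.2 CPM in Ctl liver and 7.48, 9.25 and 9.55 CPM in Li-KO liver, without overlap (log2 fold change -0.92 ± 0.15, adjusted p = 0.0111 in edgeR). Sp1, the founding and widely expressed member, was at 112, 124 and 124 CPM in Ctl liver and 72.2, 67.2 and 90.3 CPM in Li-KO liver (-0.65 ± 0.14, adjusted p = 0.0238). Sp3, which competes with Sp1 for the same sites, was at 99.4, 91.7 and 117 CPM against 54.8, 68.3 and 80.6 CPM (-0.59 ± 0.16, adjusted p = 0.0494). Sp2 also passed (log2 fold change -0.98 ± 0.22, adjusted p = 0.0276). In none of these 4, named because they passed, did the groups overlap. Of all genes tested, 17.8% were lower in Li-KO without overlap. Calls depended on single libraries: with each library left out in turn, Sp4 passed in 5 of 6 fits, Sp2 in 3, Sp1 in 2 and Sp3 in 1, the highest adjusted p being 0.0613, 0.124, 0.101 and 0.158.

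Of 17 genes tested for cofactors through which the family acts, 2 rose, against 6.11% of all genes, and the median log2 fold change was -0.13. Sin3b, a scaffold of the Sin3 corepressor, rose from 42.6 ± 2.71 to 63.8 ± 5.96 CPM, and Hdac3, a histone deacetylase, from 35.0 ± 3.01 to 50.1 ± 4.92 CPM. With each library left out in turn, Sin3b passed in 3 of 6 fits and Hdac3 in 1, with adjusted p of up to 0.0925 and 0.126. Sin3a and the Ctbp1 and Ctbp2 genes did not pass, with adjusted p of 0.195, 0.642 and 0.880 in edgeR.

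Lists of pathways known to act upstream of members are read against the 12.0% of all genes that passed. Of 12 genes of the glucocorticoid receptor list, which includes the receptor Nr3c1, 0 passed in either direction by edgeR or limma-voom, 1 fell and 1 rose by DESeq2 and at an unadjusted p under 0.05, and the median log2 fold change was -0.06. The list varied widely within groups, summing to 4606 to 10300 CPM in Ctl and 5859 to 8862 CPM in Li-KO. Its genes were highest of the group in Ctl replicate 0, except Nr3c1, and in Li-KO replicate 2, except Sgk1 and Tat. The libraries are those in which many members were highest, and the part of this pattern in the member values was not tested. For the receptor target Fkbp5 the 95% interval ran from -1.57 to 1.14, so the count of 0 does not show an unchanged pathway. Of 14 TGF-beta pathway genes, 1 fell (Tgfbr1, a receptor, from 92.6 ± 3.89 to 63.6 ± 11.8 CPM) and 0 rose, while 4 were lower and 0 higher at an unadjusted p under 0.05. The median of the 14 was -0.21, with 12 below 0, and Tgfbr1 passed in 1 of the 6 fits without a library (adjusted p up to 0.167). Of 18 clock genes, 1 fell and 0 rose: Arntl, the partner of Clock at E-boxes, went from 17.1 ± 6.19 to 6.08 ± 2.55 CPM (adjusted p = 0.0313, log2 fold change -1.49 ± 0.35), and its call ended in 4 of the 6 fits without a library. DESeq2 called 3 clock genes lower, and 4 were lower and 1 higher at an unadjusted p under 0.05. The clock median was -0.33, with 14 of 18 below 0. Of 14 immediate early genes, a class that holds Klf2, Klf6 and Klf10 in many cells, 2 fell (Btg2 and Nr4a1) and 1 rose (Gadd45b), with a median of -0.01. Btg2 passed in 6 of the 6 fits without a library, but Nr4a1 and Gadd45b in 1 each (adjusted p up to 0.115 and 0.114), and limma-voom called 0 of the 14 higher against 2 by DESeq2 and 3 at an unadjusted p under 0.05 in edgeR. Of 9 genes described as Klf15 targets, 5 fell and 0 rose, led by Hpd (2030 ± 372 to 111 ± 23.3 CPM), Otc and Prodh. The rest of that list, Pck1, Gpt2, Srebf1 and Tat, did not pass and had log2 fold changes above 0 (0.37, 0.27, 0.25 and 0.22). That list was chosen with these results known and is not independent evidence.

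Genes whose 6 centred log2 CPM values lay closest to those of each called member were ranked among 8272 protein-coding genes by root mean square difference over the 6 libraries. For Klf15 they were Tdo2 (0.13), Gchfr (0.26), Abat (0.28), Btg2 (0.29) and Arl13b (0.29 log2 units). For Klf10 they were Ogfrl1 (0.23), Papss2 (0.28), Dhtkd1, Gstm7 and Pfkfb1, and for Klf11 Gin1 (0.21), Afmid, Crebrf, Mnt and Sfxn2. For Klf12 they were Miip (0.10), Chsy3, Tkfc, Plekha5 and Ccnk, and for Klf7 Rprd1a (0.04), Ick, Nr2f2, Smarcc2 and Rybp. Members were not each other's closest genes: the nearest member to Klf15 was Klf11, at rank 37 with 0.51, and the nearest to Klf10 was Klf15, at rank 25 with 0.62. The difference includes the size of the change between groups. Members with unequal log2 fold changes are therefore set apart by it, whatever pattern they share among libraries.

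Library totals without the 77 skipped genes were 30132496 to 42782324 fragments, and the member counts ranged from 160 to 14416 fragments per library. Of the 10 hepatocyte markers, 4 (Alb among them) were skipped by the software, and the 6 measured summed to 16702 to 26872 CPM in Ctl liver and 18819 to 22728 CPM in Li-KO liver, with 1 lower (Tdo2) and 0 higher by edgeR, and 1 higher by DESeq2 and at an unadjusted p under 0.05. Of 10 Kupffer cell and 10 stellate cell markers, 0 passed in either direction by edgeR or limma-voom. At an unadjusted p under 0.05, 1 Kupffer cell marker was lower, and 2 stellate cell markers were lower and 2 higher, with 1 stellate cell marker lower by DESeq2. Annotated genes overlap 5 members, Klf3, Klf7, Klf9, Klf12 and Klf13. The overlapping genes with a mean count above 10 are C230096K16Rik on the strand of Klf3 (mean 277), and E030018B13Rik (343) and Gm27252 (147) opposite Klf13, so a part of the Klf3 and Klf13 fragments could belong to them.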

How the data were processed

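RNA of 6 liver libraries was prepared with a stranded total RNA kit, per the labels' protocols. Per the submitters' processing notes, the software was STAR, Cufflinks and Cuffdiff, with mm10 as genome. Not given in the sources used here: versions, annotation, strand setting and the treatment of reads that match several genes. The authors deposited estimated counts (raw fragments, 3.29% not whole) and FPKM, which the authors' software scaled for length and depth, per the file headers. The condition KO was taken as Li-KO and WT as Ctl, from sample titles, and 0 columns of per-sample values had no sample.

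Estimated counts were rounded. The 77 genes skipped by Cuffdiff in some library were left out. Genes were filtered with filterByExpr (minimum count 10, minimum total 15), scaled by TMM and tested with edgeR 4.0.16 (quasi-likelihood test, two-sided), Li-KO against Ctl with group as the only term, with Benjamini-Hochberg adjustment over all genes (threshold 0.05). Standard errors came from the F statistic. Alternatives used DESeq2 1.42.0, limma 3.58.1 (FPKM with pseudocount 0.1 or 1), other scalings and filters, a replicate block and each library left out. The fit was tested on simulated data. Other tools were R 4.3.3 and Python 3.11.15 with pandas 2.3.3, numpy 2.4.6 and matplotlib 3.10.9. Positions and exons are from GENCODE M21 (mm10), promoters from RefSeq (GRCm38.p6, the same assembly).

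The members and gene lists were chosen with earlier results of these data known. All members were named. Of other family members, the called ones and those with the highest FPKM were named, of other lists up to 3 called genes, and for each called member the 5 genes of most similar pattern (protein-coding, mean CPM at least 10). Marker lists of cholangiocytes (1 of 7 tested lower, Sox9, and 0 higher), lymphocytes (0 of 6 passing) and neutrophils (0 of 3 passing) were also counted. Sox9 was the only 1 of the 7 cholangiocyte markers with a log2 fold change below 0, and their median was 0.77. Of them, 1 was higher by DESeq2 and 2 at an unadjusted p under 0.05 in edgeR. The cholangiocyte list summed to 33.8 to 64.6 CPM in Ctl liver and 48.6 to 152 CPM in Li-KO liver. Ctgf of the TGF-beta list matched no gene name. A result from the cofactor list is not reported here. For the 10 members counting error is small at these depths, and precision is set by 3 libraries per group. Counting error is larger for scarce genes such as Klf5, which had 0 to 13 fragments per library.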

Additional observations from a re-analysis of the deposited data

How the results depend on the processing

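No alternative called a member higher. Against 1986 changed genes and 5 members in all, DESeq2 gave 3146 genes and 7 members, and limma on log2(FPKM + 0.1) of all genes above 0 gave 905 genes and 3 members (Klf15, Klf10 and Klf12). Fits that left out a library gave 432 to 2549 genes and 3 to 7 members: without Ctl replicate 2 or Li-KO replicate 1 it was 3 members, and without Li-KO replicate 2 it was 7. The calls of Klf15, Klf10 and Klf12 held in each alternative run. Klf11 lost its call in 4 of 17 and Klf7 in 6 of 17, while Klf9 and Klf3 each gained one in 5 of 17. The log2 fold change of Klf2 was 0.01 without Li-KO replicate 0 and 0.0042 without Li-KO replicate 1, and its range over the fits without a library was -0.40 to 0.01. The summed FPKM of the members was 2.07 to 2.67 times as high in Ctl as in Li-KO when a library was left out.

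Same-numbered libraries were not shown to be paired: their deviations from the group means correlated at 0.02, 0.08 and 0.07 across genes, and not every library correlated best with its own number. With the replicate number as a block, 956 genes rose and 1015 fell, and 6 members fell, Klf3 (log2 fold change -0.77, adjusted p = 0.0299) being added.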
